A study of Mus musculus with 6 samples.

Results

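The genes described here are 10 regulators that hold resting lymphocytes back from growth and division: Klf2, Foxo1, Foxp1, Btg1, Btg2, Tob1, Tsc22d3, Txnip, Pik3ip1 and Slfn2. They were chosen by name for those roles, with earlier results of these data known. All 10 were found among the 55414 genes of the deposited table and passed the filter on low counts. The libraries hold polyadenylated RNA of mouse CD8+ T cells of OT-I genotype, whose transgenic receptor recognises a fragment of ovalbumin, from tissue labelled as spleen and lymph nodes. The 3 groups of 2 libraries are cells 4 days after the N4 peptide (the ovalbumin fragment itself), cells 4 days after the T4 peptide (a variant of it that binds the same receptor more weakly), and naive cells. Both peptides came with antibodies to the costimulatory receptors OX40 and 4-1BB, so peptide and costimulation cannot be told apart against naive cells, while N4 against T4 differs by the peptide alone as far as the labels say. The labels give neither age nor sex, leave unsaid whether stimulation took place in the mice or in culture, and do not tie each replicate to a mouse of its own.

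A naive T cell stays small and undivided because a set of genes keeps it so, and strong receptor signals through PI3K and AKT lower many of them. KLF2 and FOXO1 are transcription factors that drive homing and survival genes of resting T cells, and FOXP1 is a forkhead factor that also enforces the resting state. BTG1, BTG2 and TOB1 bring the CCR4-NOT deadenylase to messenger RNAs, which shortens their poly(A) tails. GILZ (the product of Tsc22d3) is a glucocorticoid-induced leucine zipper protein, TXNIP binds thioredoxin and limits glucose uptake, PIK3IP1 is a membrane inhibitor of PI3K, and Schlafen 2 (Slfn2) is needed for T cells to stay quiescent.

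The libraries held 269033066 to 335968843 estimated counts each. The 10 T cell markers, Cd8a and Cd8b1 among them, summed to 3854.4 and 4765.6 CPM (counts as a share of the library, scaled by the TMM method) in N4, 3668.3 to 3837.6 in T4 and 5163.7 to 5221.1 in naive libraries. Cd3d, a subunit of the T cell receptor complex, made up much of these sums, with a mean of 2580 CPM in N4. Single T cell markers were less even: in N4 against naive cells Lat and Cd2 fell (adjusted p = 0.047 each), the median log2 fold change of the 10 was -0.66, and 5 had an unadjusted p under 0.05. Cd8b1, a chain of the CD8 coreceptor, was at 703 and 321 CPM in naive cells, 433 and 416 in T4 and 187 and 164 in N4 (adjusted p = 0.059 for N4 against naive). The summed markers of other cells differed more. The 12 macrophage and monocyte markers summed to 48.7 to 53.3 CPM in N4, with Adgre1 and Spic at 0, to 278 to 292 in T4 and to 2276.7 to 2722.7 in naive libraries. The 8 neutrophil markers reached 39.6 to 47.6 CPM in N4 and 4.82 to 11 in T4, against 2443.9 in naive replicate 1 and 25324.3 in naive replicate 2. The 8 dendritic cell markers summed to 63.5 to 83.1, 519 to 534 and 1267.5 to 1956.2 CPM in N4, T4 and naive libraries, and the 6 natural killer cell markers to 9.23 to 9.33, 35 to 36.6 and 98.7 to 138. The 8 B cell markers summed to 2.42 to 3.96 CPM in N4, with 5 of them at 0 in both libraries, to 53.6 to 56.1 in T4 and to 25.7 to 65.5 in naive libraries, and of 7 tested 6 fell in N4 against naive cells and 5 in N4 against T4. The 6 stromal and endothelial markers summed to at most 38.6 CPM in any library, reached in N4 replicate 1, where Col1a1 was at 28.8. N4 replicate 2 had Col1a1 at 0 and the lowest sum, 4 CPM. The 4 CD4 and regulatory T cell genes summed to 48.9 to 81.3 CPM in N4, 16.3 to 16.4 in T4 and 3.91 to 4.46 in naive libraries. Ctla4 made up nearly all of the sums in the stimulated groups, at 47 and 79.5 CPM in N4 and 15.8 and 16.3 in T4. In N4, Cd4 was at 0, Foxp3 at 0.394 and 1.15 CPM and Cd40lg at 1.49 and 0.601. Cells of these types also express several of the 10 genes, and their part in the results below was not tested.

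All 10 genes had lower mean levels in N4 than in naive cells, and 5 of them fell by the test: Tsc22d3, Pik3ip1, Txnip, Btg1 and Btg2 were 10.5-fold, 8.62-fold, 5.43-fold, 4.99-fold and 2.38-fold lower. None of the 10 rose, and 8 had an unadjusted p under 0.05, as did 7080 of all 23003 genes tested, in either direction. Of all 23003 genes tested, 7.18% were called lower in the same comparison (edgeR quasi-likelihood test, Benjamini-Hochberg adjustment, threshold 0.05). The median log2 fold change was -1.41 over the 10 genes and -0.09 over all genes. In bulk RNA, fewer cells of a type and less RNA per cell cannot be told apart. Tsc22d3 and Txnip passed the threshold under every alternative tried in this comparison, and the others did not.

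Against naive cells, T4 cells showed 1 fall that passed the test, Tsc22d3, in a comparison that called 0.0348% of all genes lower. The median over the 10 genes was -0.7, against 0 over all genes. An unadjusted p under 0.05 was reached by 4 of the 10 and by 3329 of all 23003 genes tested. Between the peptides, Txnip and Btg2 fell in N4, and 4.47% of all genes were called lower. There the median was -0.82 over the 10 genes and -0.2 over all genes, and 6 of the 10 and 6727 of all 23003 genes had an unadjusted p under 0.05. These all-gene counts are also the background for the unadjusted counts of the gene lists below. N4 and T4 were each set against the same 2 naive libraries, and each stimulated group also enters the comparison of peptides, so the 3 comparisons are not independent.

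**Figure D1:**
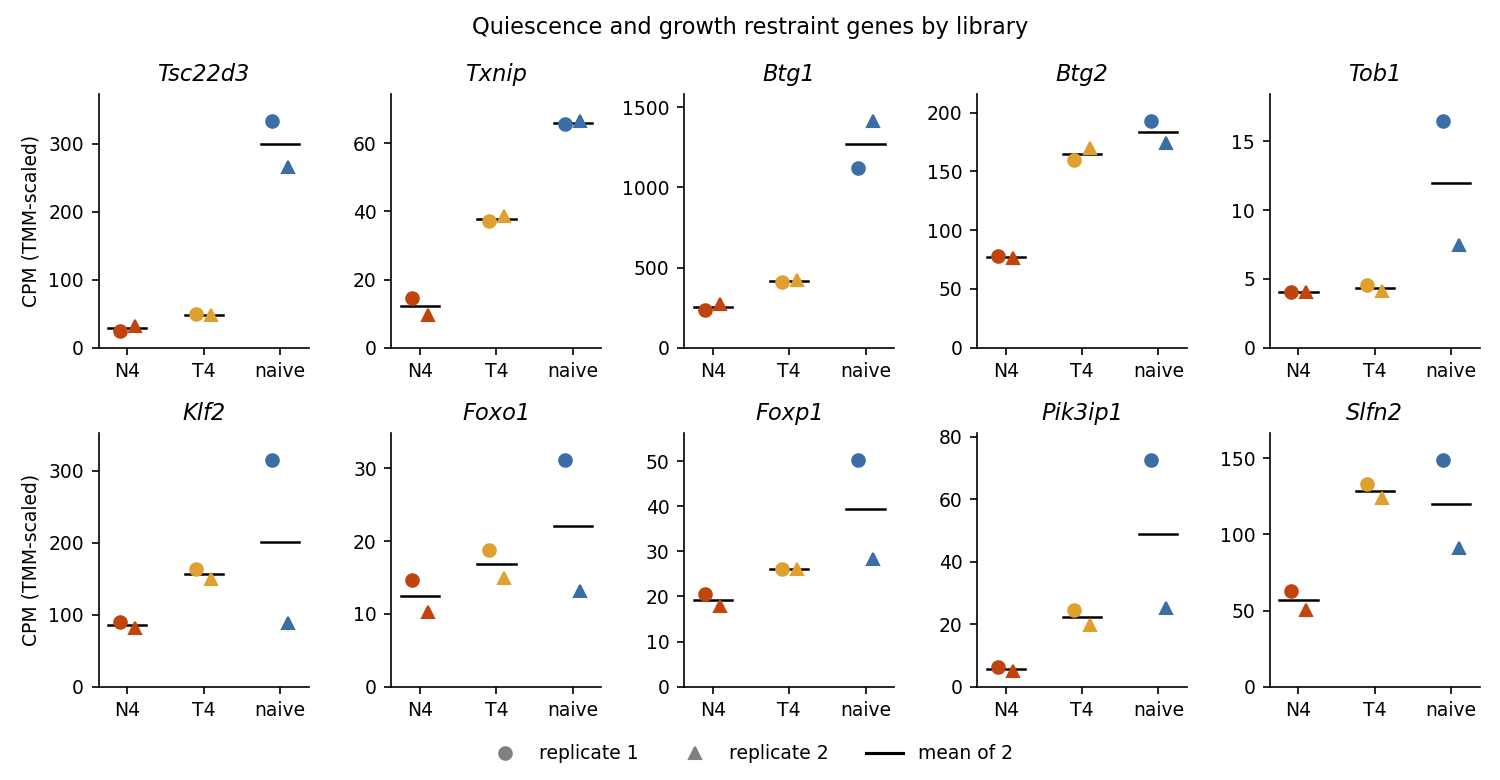
TMM-scaled CPM (y axis, linear, from 0) of the 10 genes in each library (circles, replicate 1; triangles, replicate 2), with a bar at the mean of the 2 libraries of N4, T4 and naive cells. In all 10 panels both N4 points lie below both T4 points, for Tob1 only by 4.08 against 4.09 CPM. The naive points of Klf2, Foxo1, Tob1 and Pik3ip1 lie more than 2-fold apart.

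The order of the single libraries gives a view that rests on no test. Both N4 libraries lay below both T4 libraries for 10 of the 10 genes, where 37.6% of all tested genes did so, and below both naive libraries for 8 of 10, where 28.9% did. Both T4 libraries lay below both naive libraries for 7 of 10 genes, against 22.6% of all genes. The exceptions against naive cells were Klf2 and Foxo1 in both comparisons and Slfn2 in T4. With TMM scaling, the only one for which it was counted, the complete order N4, T4, naive with no overlap held for 7 of 10 genes and for 6.39% of all genes. Among the 7 was Tob1, whose N4 libraries (4.02 and 4.08 CPM) lay barely below those of T4 (4.59 and 4.09). The complete order requires T4 below naive, and the count for T4 against naive depended on the scaling. It was 3 of 10 under library totals, where 13.9% of all genes did so. When libraries were scaled to the T cell markers it was 4 of 10 (with 2 genes higher), beside 11.1% of all genes. For N4 against T4 it was 9 of 10 with DESeq2 size factors, beside 37% of all genes. It was 10 of 10 under library totals and with T cell marker scaling, where 60.3% and 41.8% of all genes did so.

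**Figure D2:**
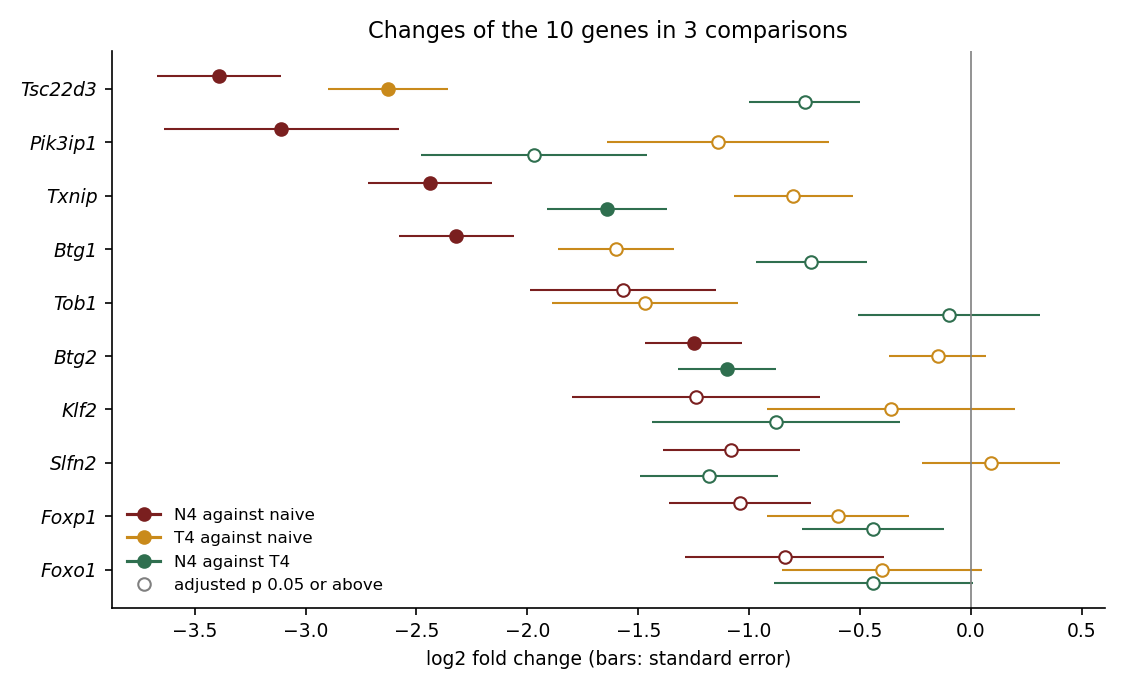
Log2 fold change (x axis) of each gene in N4 against naive, T4 against naive and N4 against T4 cells, with standard errors as bars. Filled points passed an adjusted p of 0.05: 5 genes, 1 gene (Tsc22d3) and 2 genes (Txnip and Btg2), all on the negative side.

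Tsc22d3 (ENSMUSG00000031431.14, chrX:140539528-140600659, minus strand, GRCm38) had the largest fold change of the 10 genes against naive cells, but not between N4 and T4. In N4 against naive cells Pik3ip1 exceeded it without naive replicate 2 (log2 fold changes of -3.69 and -3.55) and without N4 replicate 1 (-3.25 and -3.22). Coordinates here and below are those of the whole gene in GENCODE M21. It stood at 334 and 266 CPM in naive cells, at 49.4 and 47.4 in T4 and at 25.2 and 32.2 in N4, so that no group overlapped another. Its log2 fold change was -3.39 (SE 0.28, adjusted p = 0.0071) for N4 and -2.63 (SE 0.27, adjusted p = 0.049) for T4, each relative to naive cells, which is a 6.2-fold lower level in T4. Between N4 and T4 it was -0.75 (SE 0.25, adjusted p = 0.11). That difference passed with library-size scaling (0.047), with DESeq2 (0.028) and in a fit of the 2 groups alone (0.029). It did not pass with no filter (0.078) or when scaled to T cell markers (0.068). Without naive replicate 1 it was -0.8. The call in T4 was lost without either N4 library (adjusted p = 0.067 and 0.066), without T4 replicate 1 (0.24) or T4 replicate 2 (0.33), with library-size scaling (0.083) and in a fit of the 2 groups alone (0.089).

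Tsc22d3 belongs to a family of leucine zipper genes and is a classical glucocorticoid target, and the related genes moved in both directions. Of 10 other TSC22 and glucocorticoid-response genes, 2 fell and 1 rose in N4 against naive cells, with a median of -0.95. Tsc22d1, a TSC22 relative, was at 21.7 and 17 CPM in naive cells, 31.1 and 32.2 in T4 and 1.99 and 2.72 in N4 (log2 fold change -3.04 against naive, adjusted p = 0.0081). Zfp36, which encodes the RNA-destabilising protein tristetraprolin, was at 165 and 140 CPM in naive cells, 179 and 196 in T4 and 25.2 and 22.1 in N4. Both also fell against T4 (log2 fold changes -3.75 and -2.99, adjusted p = 0.013 each). Fkbp5, a glucocorticoid receptor co-chaperone and another classical glucocorticoid target, went the other way, at 4.79 and 7.07 CPM in naive cells, 8.85 and 7.03 in T4 and 26.8 and 23 in N4. It rose in N4 against naive (log2 fold change 2.07, adjusted p = 0.016) and against T4 (1.65, adjusted p = 0.035). None of the 10 was called in T4 against naive cells by edgeR, and 2 had an unadjusted p under 0.05.

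Txnip and 2 genes of the BTG family carry in their promoters short motifs that few promoters hold. The 250 bases before the start site, from RefSeq on GRCm38.p6, are shown for these because they are the genes that fell in N4 against naive cells and whose promoter matched a motif found in under 5% of promoters. All 10 genes had a promoter in the RefSeq table, 2 of them (Foxp1 and Tsc22d3) with more than 1 start. Capitals mark the matches. The motifs were searched on both strands, and their letters were chosen with these promoters in view.
Txnip, chr3:96557707-96557956, plus strand: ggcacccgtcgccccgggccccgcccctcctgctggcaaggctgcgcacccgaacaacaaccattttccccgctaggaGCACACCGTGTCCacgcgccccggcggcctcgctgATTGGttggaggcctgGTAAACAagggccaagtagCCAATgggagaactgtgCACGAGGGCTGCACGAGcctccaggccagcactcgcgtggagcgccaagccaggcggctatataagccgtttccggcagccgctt
Btg1, chr10:96616751-96617000, plus strand: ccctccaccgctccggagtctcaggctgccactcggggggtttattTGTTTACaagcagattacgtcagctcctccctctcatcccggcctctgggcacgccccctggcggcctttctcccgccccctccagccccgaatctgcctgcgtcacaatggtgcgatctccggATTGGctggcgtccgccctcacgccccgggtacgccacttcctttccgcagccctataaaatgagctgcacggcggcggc
Btg2, chr1:134079156-134079405, minus strand: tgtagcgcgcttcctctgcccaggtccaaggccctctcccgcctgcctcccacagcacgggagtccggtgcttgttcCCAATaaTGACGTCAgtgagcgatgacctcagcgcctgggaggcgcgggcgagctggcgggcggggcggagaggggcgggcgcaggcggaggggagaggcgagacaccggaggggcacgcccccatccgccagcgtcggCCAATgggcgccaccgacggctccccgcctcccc
The forkhead motif GTAAACA was at -121 to -115 of Txnip and, on the other strand, at -204 to -198 of Btg1. Of 32851 promoter windows of this length in the table, 3.17% hold it. Txnip also has 2 copies of CACGAG, 5 bases apart, at -85 to -69. That pattern was modelled on its own known carbohydrate response element, so its rarity (1 promoter, 0.00304%) is no evidence of anything. Txnip further has GNACA followed after 3 bases by TGTNC, the form of a glucocorticoid response element, at -172 to -160 (0.387% of promoters). The cAMP response element TGACGTCA was at -166 to -159 of Btg2 and in 1.55% of promoters. CCAAT boxes (CCAAT) were in a promoter of 7 of the 10 genes and in 33.8% of all promoter windows, and overlap none of the other matches. The first count is of genes, and Foxp1, among the 7, has more than 1 window. A match describes these letters only.

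Txnip (ENSMUSG00000038393.15, chr3:96557957-96561883, plus strand, overlapping Gm15441 on the opposite strand) fell in N4 against both other groups. Its levels were 65.5 and 66.6 CPM in naive cells, 37.1 and 38.5 in T4 and 14.6 and 9.72 in N4, 3 ranges that did not overlap. With TMM scaling the naive libraries, which differed widely for several other genes, agreed within 1.02-fold for this one. As TPM, a level per transcript length without that scaling, they were apart, at 28.9 and 15.3. The log2 fold change was -2.44 (SE 0.28, adjusted p = 0.0098) for N4 relative to naive cells, -1.64 (SE 0.27, adjusted p = 0.031) for N4 relative to T4 and -0.8 (SE 0.27, adjusted p = 0.26) for T4 relative to naive cells. N4 levels were 3.11-fold below those of T4. That call was lost when N4 replicate 1 or 2 was left out (adjusted p = 0.067 and 0.14) and when T4 replicate 1 or 2 was (0.2 and 0.21).

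Among 11 genes around Txnip (other alpha-arrestins, thioredoxins, their reductases and the glucose-sensing MLX factors), 1 fell and 1 rose in N4 against naive cells, with a median of -0.41. The one that fell was Arrdc4, the alpha-arrestin closest to Txnip and, like it, a target of the glucose-sensing factor MondoA. Arrdc4 was at 6.65 and 8.79 CPM in naive cells, 6.4 and 5.11 in T4 and 0.394 and 0.43 in N4. It was 18.7-fold lower than in naive cells (adjusted p = 0.0071) and 14-fold lower than in T4 (adjusted p = 0.014). The one that rose was Txn1, the thioredoxin that TXNIP binds, with 572 and 1423.5 CPM in naive cells, 930 and 1110.3 in T4 and 3622.9 and 5225.4 in N4. Txn1 was 4.43-fold higher than in naive cells (adjusted p = 0.044), and the difference from T4 had an adjusted p of 0.054. The ratio of Txn1 to Txnip CPM within a library was 8.74 and 21.4 in naive cells, 25.1 and 28.8 in T4 and 248 and 538 in N4. None of the 11 was called by edgeR in T4 against naive cells, and 1 had an unadjusted p under 0.05.

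Btg1 (ENSMUSG00000036478.9, chr10:96617006-96622809, plus strand) had the highest mean TPM, a level per transcript length, of the 10 genes in every group. It was at 1121.7 and 1416.5 CPM in naive cells, 411 and 425 in T4 and 237 and 271 in N4, with no overlap. The log2 fold change was -2.32 (SE 0.26, adjusted p = 0.0096) for N4 and -1.6 (SE 0.26, adjusted p = 0.085) for T4, each relative to naive cells, and -0.72 (SE 0.25, adjusted p = 0.13) between the peptides. Single libraries moved these calls: the first was lost without N4 replicate 1 (adjusted p = 0.053) or N4 replicate 2 (0.052). The second was gained without naive replicate 1 (0.02) or 2 (0.049), and so was the third (0.022 and 0.043).

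Btg2 (ENSMUSG00000020423.7, chr1:134075170-134079120, minus strand), also known as an immediate early gene, stood close to its naive level in T4 cells. It was at 193 and 174 CPM in naive cells, 160 and 170 in T4 and 78.3 and 76 in N4. T4 levels thus lay just below naive ones (log2 fold change -0.15, SE 0.22, adjusted p = 0.83), and N4 levels well below both. N4 was at -1.25 (SE 0.22, adjusted p = 0.023) against naive and at -1.1 (SE 0.22, adjusted p = 0.041) against T4, a 2.14-fold lower level. The call against T4 was lost without any one of the N4 replicates 1 and 2 (adjusted p = 0.14 and 0.2) or T4 replicates 1 and 2 (0.3 each). The call against naive was lost without N4 replicate 1 (0.11), N4 replicate 2 (0.13), T4 replicate 1 (0.082) or T4 replicate 2 (0.084), in a fit of the 2 groups alone (0.073) and when scaled to T cell markers (0.053). The sign of the T4 difference was positive with library-size scaling (0.13) and with T cell marker scaling (0.31).

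The proportions of these genes can be read within each library, where scaling plays no part. The ratio of Btg1 to Btg2 CPM was 5.83 and 8.12 in naive cells, 2.57 and 2.49 in T4 and 3.03 and 3.57 in N4. The ratio of Tsc22d3 to Btg2 was 1.73 and 1.53 in naive cells, 0.309 and 0.278 in T4 and 0.322 and 0.423 in N4. Both ratios thus set naive cells above both stimulated groups. Txnip to Btg2 was graded, at 0.34 and 0.382 in naive cells, 0.232 and 0.226 in T4 and 0.186 and 0.128 in N4. Slfn2 to Btg2 overlapped across all groups, at 0.774 and 0.522 in naive cells, 0.832 and 0.726 in T4 and 0.804 and 0.664 in N4. These ratios were chosen after the values had been seen and carry no test.

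Tob1 (ENSMUSG00000037573.6, chr11:94211454-94215495, plus strand), an anti-proliferative gene of the same family, was among the scarcest of the 10. It was at 16.5 and 7.48 CPM in naive cells, 4.59 and 4.09 in T4 and 4.02 and 4.08 in N4. Both stimulated groups lay below both naive libraries, at log2 fold changes of -1.57 (SE 0.42, adjusted p = 0.064) in N4 and -1.47 (SE 0.42, adjusted p = 0.21) in T4. N4 differed from T4 by -0.1 (SE 0.41, adjusted p = 0.91), which did not pass. With DESeq2 both differences from naive cells passed (adjusted p = 0.0028 and 0.013), but not with library-size scaling (0.085 and 0.46). Without naive replicate 2 they were -2.03 and -1.93.

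Of the 2 other family members tested, Btg3 and Tob2, neither was called in any comparison by edgeR. In N4 against naive cells and in N4 against T4, 1 of them (Tob2) had an unadjusted p under 0.05, and in T4 against naive 0 did. The deadenylase that these proteins recruit gave few calls. Of 12 genes (11 CCR4-NOT subunits and Pabpc1, which binds poly(A)), none was called in N4 or T4 against naive cells, with medians of 0.41 and 0.02, and 3 and 0 had an unadjusted p under 0.05. Cnot6, a catalytic deadenylase subunit, rose in N4 against T4, with 36.9 and 39.8 CPM against 16.6 and 18 (log2 fold change 1.15, adjusted p = 0.045), beside 24 and 18.6 in naive cells.

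Pik3ip1 (ENSMUSG00000034614.15, chr11:3330401-3342971, plus strand, overlapping Gm12592 on the opposite strand) fell in N4 cells. It was at 72.7 and 25.2 CPM in naive cells, 24.7 and 19.7 in T4 and 6.2 and 5.15 in N4. N4 libraries lay far below all others, while the lower naive library was close to the T4 libraries. The log2 fold change was -3.11 (SE 0.53, adjusted p = 0.022) for N4 relative to naive, -1.97 (SE 0.51, adjusted p = 0.066) for N4 relative to T4 and -1.14 (SE 0.5, adjusted p = 0.37) for T4 relative to naive. The call was lost without N4 replicate 1 (0.083) or N4 replicate 2 (0.11). The difference between the peptides passed without naive replicate 1 (0.0099) or 2 (0.0083) and in a fit of the 2 groups alone (0.0088). Without naive replicate 1 the T4 difference from naive was -0.28.

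Few of the PI3K and mTOR genes were called. Of 20 kinases, adaptors, phosphatases and mTOR components, 2 fell and 1 rose in N4 against naive cells, and the median was -0.06, also with Deptor at the bound that a floor of 3 counts per library sets. Pik3r2, a regulatory subunit of PI3K, fell, at 6.87 and 2.04 CPM in naive cells, 5.47 and 5.03 in T4 and 0.412 and 0.239 in N4 (adjusted p = 0.025 against naive and 0.032 against T4). Deptor, an inhibitor of mTOR, was listed at 0 in both N4 libraries, beside 1.82 and 1.13 CPM in T4 and 0.362 and 0.428 in naive cells. Akt1, the kinase downstream of PI3K, rose against naive cells, with 6.97 and 4.67 CPM in naive cells, 12.7 and 11.4 in T4 and 26.5 and 13.6 in N4 (log2 fold change 1.78, adjusted p = 0.043). T4 against naive cells gave no edgeR call among the 20, and 5 had an unadjusted p under 0.05.

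Klf2 (ENSMUSG00000055148.8, chr8:72319033-72321656, plus strand) was the gene on which the naive libraries disagreed most. It was at 315 CPM in naive replicate 1 and at 87.9 in naive replicate 2, 3.59-fold apart, a larger gap than 81.6% of all tested genes had. The stimulated groups were tight, at 89.1 and 81.4 CPM in N4 and 163 and 150 in T4. T4 thus lay above N4 in every pair of libraries, and the naive libraries lay on either side of T4, the lower of them between the N4 libraries. The log2 fold change was -1.24 (SE 0.56, adjusted p = 0.2) for N4 relative to naive, -0.36 (SE 0.56, adjusted p = 0.85) for T4 relative to naive and -0.88 (SE 0.56, adjusted p = 0.35) for N4 relative to T4. Without naive replicate 2 the N4 difference was -1.89 and passed (adjusted p = 0.0063). Without naive replicate 1 it was -0.18, and the T4 difference turned to 0.74 (adjusted p = 0.13). Without naive replicate 1 or 2 the difference between the peptides passed (0.022 each), as it did in a fit of the 2 groups alone (0.018). The neutrophil markers also differed between the naive libraries, in the opposite direction, and their part in the gap was not tested.

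Foxo1 (ENSMUSG00000044167.7, chr3:52268336-52353221, plus strand, overlapping Gm20402 on the opposite strand) followed the same outline at a lower level. It was at 31.2 and 13.1 CPM in naive cells, 18.8 and 14.9 in T4 and 14.6 and 10.2 in N4, so that naive cells again spanned the T4 range. None of its differences passed: log2 fold changes were -0.84 (SE 0.45, adjusted p = 0.26) for N4 relative to naive, -0.4 (SE 0.45, adjusted p = 0.78) for T4 relative to naive and -0.44 (SE 0.45, adjusted p = 0.57) for N4 relative to T4. Without naive replicate 2 the first passed, at -1.34 (adjusted p = 0.038), and without naive replicate 1 the T4 difference was 0.27. FOXO1 activity is set largely by phosphorylation and export from the nucleus, which RNA levels do not show.

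Foxp1 (ENSMUSG00000030067.18, chr6:98925338-99522721, minus strand, overlapping Gm20696 and Gm49348 on the same strand) kept the order N4, T4, naive without overlap, at 50.3 and 28.4 CPM in naive cells, 26 and 26.1 in T4 and 20.5 and 17.8 in N4. The spans between groups were small. The log2 fold change was -1.04 (SE 0.32, adjusted p = 0.091) for N4 relative to naive, -0.6 (SE 0.32, adjusted p = 0.47) for T4 relative to naive and -0.44 (SE 0.32, adjusted p = 0.4) for N4 relative to T4. The N4 difference from naive passed with DESeq2 (adjusted p = 0.012) and with no filter (0.033), but not with library-size scaling (0.11). Without naive replicate 2 it was -1.4.

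**Figure D3:**
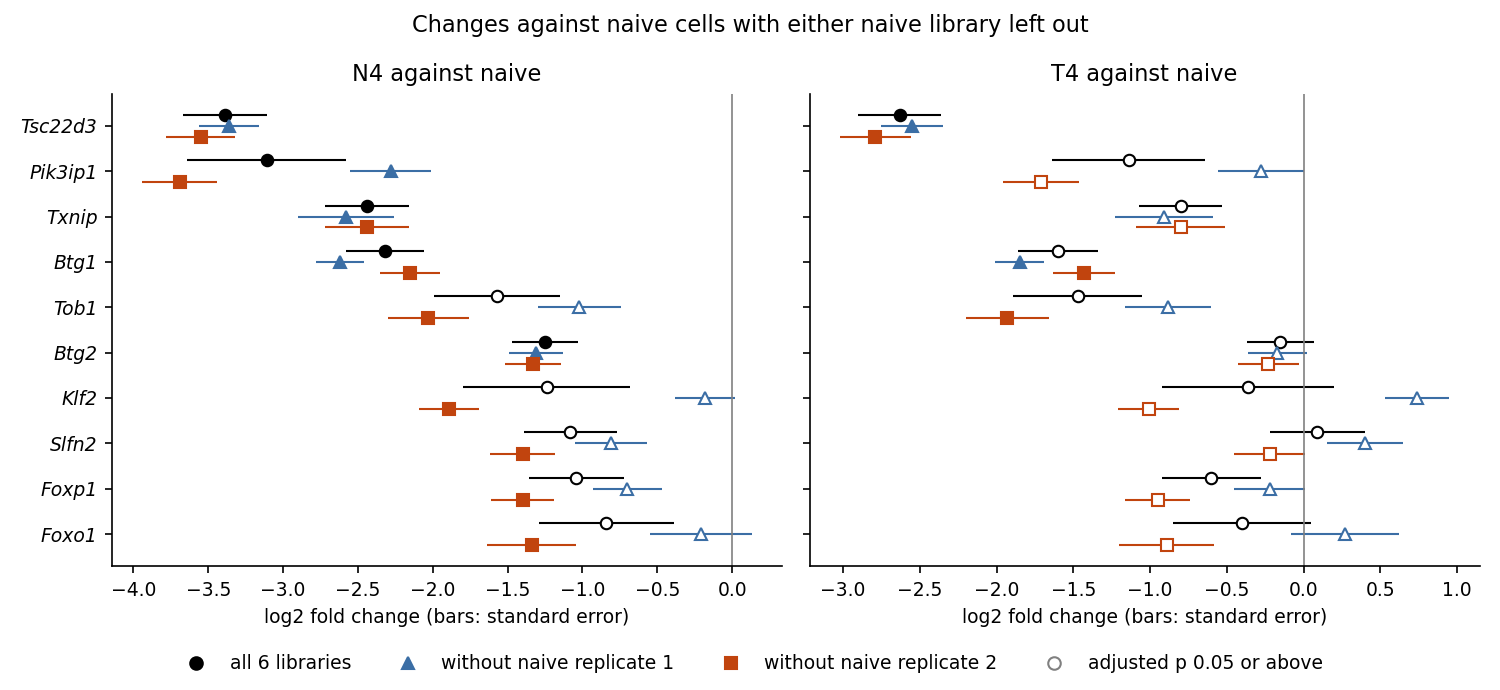
Log2 fold change (x axis, bars are standard errors) against naive cells for N4 (left panel) and T4 (right panel) with all 6 libraries (circles), without naive replicate 1 (triangles) and without naive replicate 2 (squares); open symbols have an adjusted p of 0.05 or above. Tsc22d3, Txnip and Btg2 move little, whereas Klf2 in T4 runs from -1.01 to 0.74.

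Several genes that FOXO1 and KLF2 are known to drive fell, although the differences of the factors themselves did not pass. Of 12 such genes, 5 fell in N4 against naive cells and 3 in N4 against T4, with medians of -1.34 and -0.85, and none rose. Fbxo32, a classical FOXO target that encodes a ubiquitin ligase subunit, was at 2.8 and 1.76 CPM in naive cells, 2.08 and 1.68 in T4 and 0.335 and 0.405 in N4, and fell in both comparisons (adjusted p = 0.024 and 0.04). Sesn1, a stress-induced inhibitor of mTORC1 signalling, and S1pr1, the receptor by which T cells leave lymphoid organs, fell against naive cells by 2.61 and 1.97 on the log2 scale (adjusted p = 0.028 and 0.033). S1pr1 stood at 190 and 87 CPM in naive cells, 58.7 and 51 in T4 and 34 and 36.9 in N4. Its naive libraries differed in the direction of those of Klf2. So did those of T cell markers such as Cd8b1 (703 and 321 CPM), but not of Cd3d (1887.9 and 2738.9). The cause of these gaps was not tested. Sesn3, the related sestrin, fell against T4 (log2 fold change -1.29, adjusted p = 0.045).

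Il7r, which encodes the interleukin-7 receptor of resting and memory T cells, ran in a different order. It was at 55.7 and 65.8 CPM in naive cells, 13.8 and 15.1 in T4 and 21.8 and 31.6 in N4, lowest in T4. It fell in N4 against naive cells (log2 fold change -1.19, adjusted p = 0.045). In T4 the difference from naive was -2.07 (adjusted p = 0.066), and N4 against T4 was 0.88 (adjusted p = 0.095). None of the 12 was called in T4 against naive cells by edgeR, and 2 had an unadjusted p under 0.05.

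Relatives of both factor families were examined next. Of 10 other KLF genes, 3 fell in N4 against naive cells (Klf6, Klf4 and Klf3, adjusted p = 0.024, 0.032 and 0.044), and the median was -1.47. Klf6, widely expressed, was at 114 and 85.8 CPM in naive cells, 56.8 and 53 in T4 and 37.5 and 39.4 in N4. Klf3, a repressor of the family, was at 127 and 41.3 CPM in naive cells, 47.7 and 47.9 in T4 and 15.5 and 18.6 in N4, with a gap between the naive libraries as in Klf2. Klf9 fell in N4 against T4 (log2 fold change -2.27, adjusted p = 0.039). No call was made by edgeR in T4 against naive cells, and 2 had an unadjusted p under 0.05. Of 8 other forkhead genes 7 passed the filter, and edgeR called none of them in any comparison, with medians of 0.06, 0.24 and -0.58 in N4 against naive, T4 against naive and N4 against T4, and 2, 1 and 2 at an unadjusted p under 0.05.

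Slfn2 (ENSMUSG00000072620.4, chr11:83065112-83070678, plus strand) was the only one of the 10 genes whose mean was higher in T4 than in naive cells with TMM scaling. It was at 149 and 91 CPM in naive cells, 133 and 124 in T4 and 62.9 and 50.5 in N4, so T4 lay inside the naive range and N4 below both. The log2 fold change was -1.08 (SE 0.31, adjusted p = 0.074) for N4 relative to naive, 0.09 (SE 0.31, adjusted p = 0.94) for T4 relative to naive and -1.18 (SE 0.31, adjusted p = 0.068) for N4 relative to T4. Both N4 differences passed with DESeq2 (adjusted p = 0.0047 and 0.0034) and with no filter (0.023 and 0.018). Neither passed with library-size scaling (0.09 and 0.065). Without naive replicate 2 they were -1.4 and -1.18. Without naive replicate 2 the T4 difference was -0.22.

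The other Schlafen genes were divided. Of 6 tested, 3 fell (Slfn1, Slfn5 and Slfn4) and 1 rose (Slfn3) in N4 against naive cells, with a median of -1.45. Slfn1, a growth regulator of thymocytes, was at 28.5 and 21.1 CPM in naive cells, 22.1 and 21.3 in T4 and 5.17 and 7.74 in N4, the same outline as Slfn2, and fell against naive (adjusted p = 0.019) and T4 (adjusted p = 0.032). Slfn3 was at 0.31 and 0.224 CPM in naive cells, 1.72 and 0.697 in T4 and 2.67 and 1.37 in N4 (log2 fold change 2.91 against naive, adjusted p = 0.047). Schlafen genes are similar neighbours in the genome, so counts may be shared among them. In T4 against naive cells edgeR called none of the 6, and 2 had an unadjusted p under 0.05.

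Of 12 other quiescence and cell cycle restraint genes, 2 fell in N4 against naive cells, Runx1, a transcription factor, and Mxd1, an antagonist of MYC (adjusted p = 0.028 and 0.034), with a median of -0.27. Runx1 also fell against T4 (log2 fold change -1.8, adjusted p = 0.035). With edgeR, 0 were called in T4 against naive cells and 3 had an unadjusted p under 0.05.

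**Figure D4:**
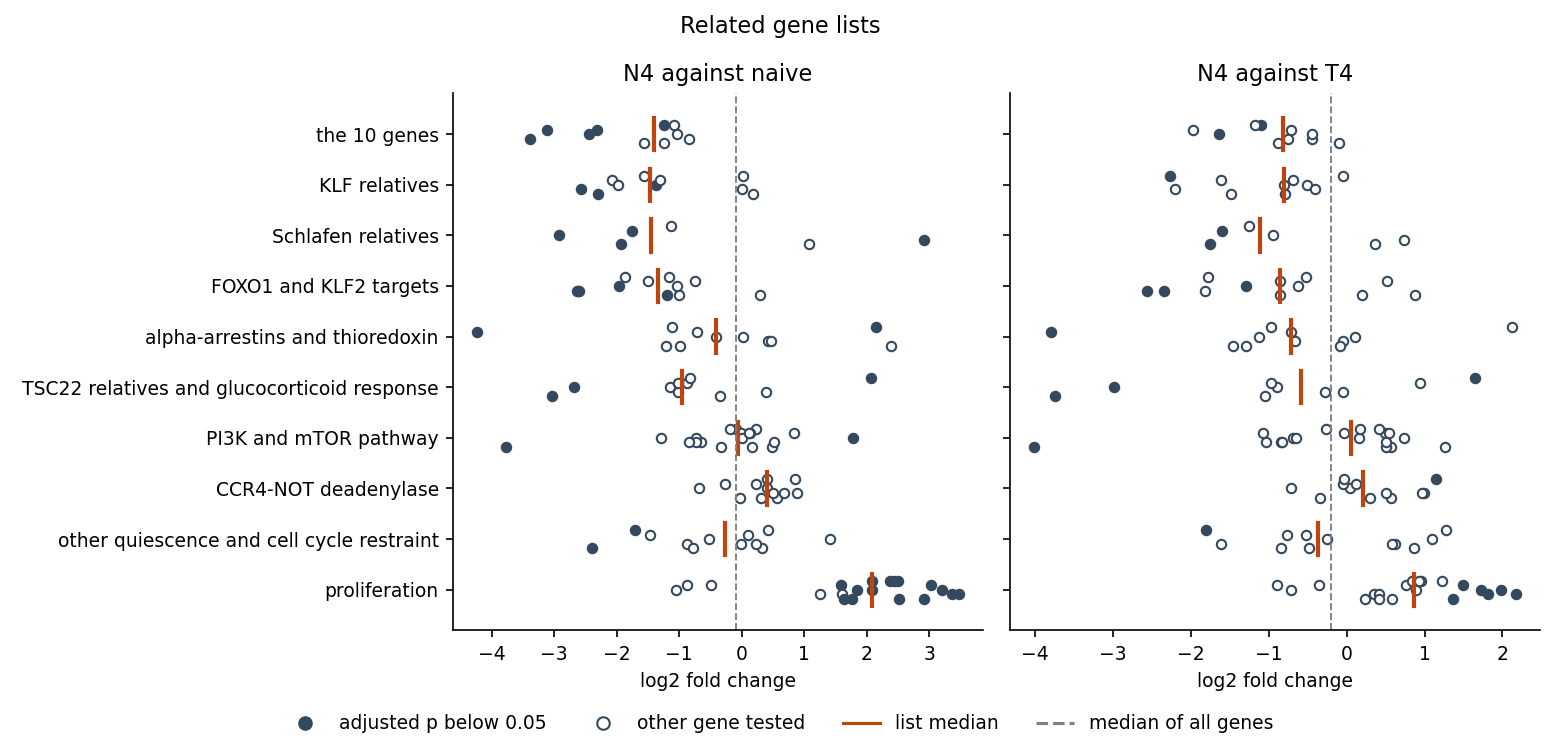
Log2 fold change (x axis) of each tested gene in the 10 genes described, 8 related lists and a proliferation list, for N4 against naive (left) and N4 against T4 (right), with list medians as red bars and the all-gene median as a dashed line; filled points passed an adjusted p of 0.05. The 10 genes and the FOXO1 and KLF2 targets lie mostly to the left and proliferation genes mostly to the right; genes at 0 in both libraries of a compared group (Deptor, and Zbtb16 on the right) are not drawn.

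Most proliferation genes ran against the 10 genes. The 10 genes summed to 552 to 558 CPM in N4, 1019.9 to 1027.1 in T4 and 2177 to 2348.4 in naive cells, and 20 proliferation genes summed to 2121 to 2143.3, 1068.4 to 1175.2 and 782 to 855 CPM. In naive cells Btg1 alone held 1121.7 and 1416.5 CPM of the first sums, and in N4 Pcna held 752 and 845 of the second. Of the 20, 15 rose in N4 against naive cells and 6 in N4 against T4, with medians of 2.09 and 0.87. Ccnd2, Ccnd3 and Myc went the other way against naive cells, at -1.05, -0.87 and -0.49 (adjusted p = 0.15, 0.076 and 0.72). Mki67, the gene of the Ki-67 antigen, was at 4.37 and 4.62 CPM in naive cells, 14.1 and 11.9 in T4 and 32.4 and 35 in N4. In T4 against naive cells none of the 20 was called by edgeR, although 15 had an unadjusted p under 0.05 and the median was 1.21.

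Immediate early and heat shock genes, which respond to cell handling as well as to stimulation, had their highest sum in T4. The 12 of them summed to 183 to 209 CPM in N4, 982 to 984 in T4 and 398 to 465 in naive cells. In T4 against naive cells 3 rose (Fos, Fosb and Hspa1b), and in N4 against T4 9 of the 12 fell. Nr4a1 had a higher mean in naive cells (11.2 CPM) than in T4 (9.2 CPM). Fos was at 3.4 and 4.38 CPM in naive cells, 45.7 and 37.1 in T4 and 1.26 and 1.25 in N4. Red cell markers were lowest in N4 too, with sums of 360 to 423 CPM in N4, 6510.7 to 8124.2 in T4 and 3447.2 to 9232.5 in naive cells. These shifts run beside the lower levels of Btg2, Txnip and the other genes in N4 than in T4, and their part in those differences was not tested.

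**Figure D5:**
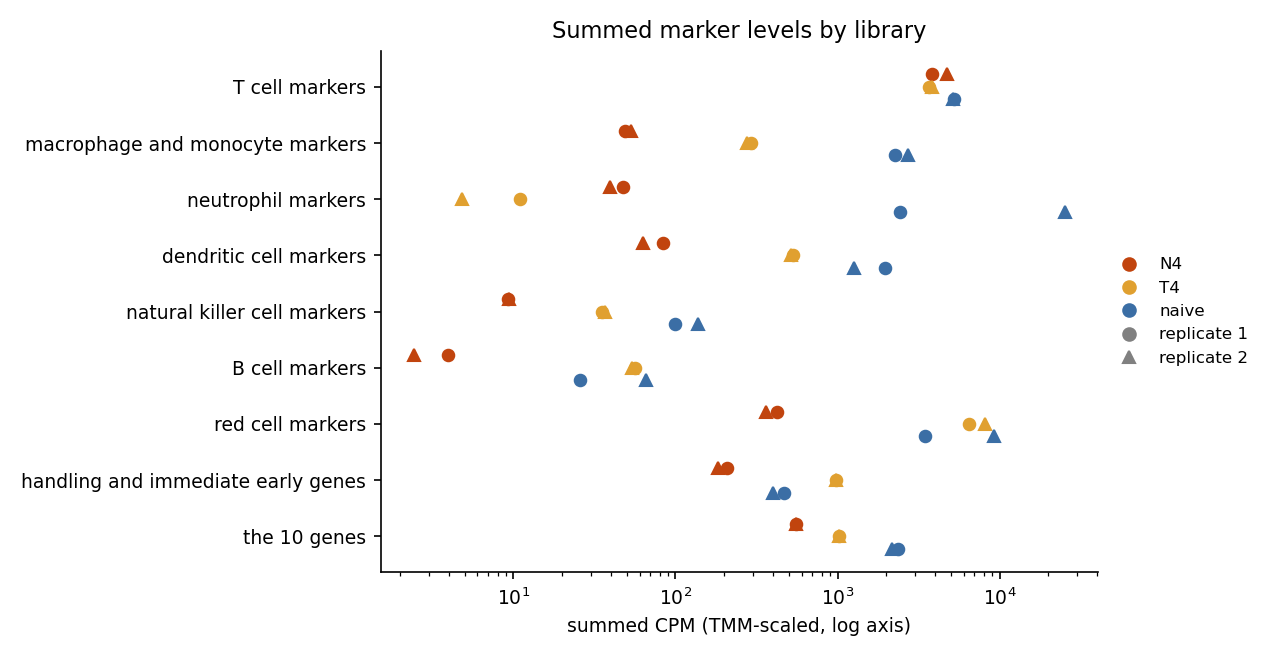
Summed TMM-scaled CPM (x axis, log scale) of marker lists in each library, coloured by group, with replicate 1 as circles and replicate 2 as triangles. Summed T cell markers run from 3668.3 to 5221.1 CPM, those of macrophages, neutrophils and dendritic cells are highest in naive libraries, and the 10 genes run from 552 CPM in N4 to 2348.4 in naive cells.

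Per transcript length, measured as TPM, the length-corrected share of a library, the 10 genes kept nearly the same ranks in both stimulated groups. In T4 the order of means was Btg1 (105 ± 4, SD, n = 2), Klf2 (103 ± 12.7), Slfn2 (93.3 ± 10.8), Btg2 (72.6 ± 1.43), Tsc22d3 (30.4 ± 3.03), Foxp1 (17.2 ± 2.47), Txnip (16.5 ± 0.777), Pik3ip1 (13 ± 3.23), Foxo1 (2.37 ± 0.541) and Tob1 (2.3 ± 0.336). In N4 the same order ran from Btg1 (31.1 ± 3.32) and Klf2 (28.1 ± 7.38) to Tob1 (1.07 ± 0.203) and Foxo1 (0.889 ± 0.392), the last pair exchanged. The library values of the neighbours Btg1 and Klf2, Klf2 and Slfn2, and Foxo1 and Tob1 overlapped in both groups, as did Foxp1 and Txnip in T4 and Slfn2 and Btg2, and Txnip and Pik3ip1, in N4. Naive cells were led by Btg1 (230 ± 68.3), Tsc22d3 (147 ± 85.8) and Klf2 (120 ± 127), with spreads that overlap, so that Tsc22d3 stood at rank 2 there and at rank 5 after either peptide.

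Spread within groups bears on every comparison above. The median difference between replicates over the 10 genes was 0.24 on the log2 scale in N4 and 0.1 in T4, beside 0.47 and 0.3 over all tested genes, and 0.77 in naive cells beside 0.76. In naive cells, replicate 1 exceeded replicate 2 by 1.84 for Klf2, 1.53 for Pik3ip1, 1.25 for Foxo1 and 1.14 for Tob1 on the log2 scale. Btg1, Btg2, Tsc22d3 and Txnip differed by at most 0.34 either way. Foxp1 and Slfn2 lay between, at 0.82 and 0.71. These differences are of TMM-scaled values, and the split depends on the scaling. As TPM, naive replicates 1 and 2 were at 86.2 and 40.7 for Btg2, 208 and 86.5 for Tsc22d3 and 28.9 and 15.3 for Txnip. Btg1, lower in replicate 1 with TMM scaling, was higher there as TPM (278 and 182). Without naive replicate 2 the median log2 fold change of the 10 genes against naive cells was -1.96 in N4 and -0.98 in T4, beside 0 and 0.09 over all genes. Without naive replicate 1 it was -1.17 and -0.25, beside 0 and 0.11.

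Among 4914 well-expressed genes, the gene with the nearest profile over the 6 libraries was found for each of the 10 by distance between centred log2 CPM values. Slfn2 was nearest to Fam32a (distance 0.11), Btg2 to Spint2 (0.14), Foxp1 to Pea15a (0.15) and Foxo1 to Gltp (0.22). Txnip was nearest to Tmem42 (0.29), Tob1 to Aqp3, an aquaglyceroporin (0.34), Klf2 to Dtx1, a regulator of Notch signalling (0.34), and Btg1 to Bcl2, the survival factor (0.39). Pik3ip1 and Tsc22d3 had the most distant neighbours, Slc17a9 (0.53) and Cd7, a T cell surface receptor (0.65). Cd7 was at 589 and 745 CPM in naive cells, 141 and 144 in T4 and 57 and 86.3 in N4. With 6 points in 3 groups, many genes share such an outline.

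Transcript use could be tested for 5 of the 10 genes (Foxp1, Tsc22d3, Pik3ip1, Btg1 and Txnip). In simulation the test of transcript use recovered nearly all large switches but called more unchanged genes than its nominal rate in both N4 comparisons. Calls it makes are therefore not relied on here. The simulated spread was a single assumed value, not taken from these libraries, and the switches were full exchanges between transcripts. Recovery there thus does not measure what the test would find in these data. None of the 5 was called in any comparison with edgeR's diffSpliceDGE, where 0.808%, 0.26% and 1.04% of 10393 genes were called in N4 against naive, T4 against naive and N4 against T4. At an unadjusted Simes p under 0.05 there was 1 gene, Foxp1, in N4 against naive, 0 in T4 against naive and 1, again Foxp1, in N4 against T4. The main transcript of Tsc22d3, Tsc22d3-201, held 92.8% and 86.3% of its counts in naive cells, 75.9% and 79.1% in T4 and 87.9% and 85.8% in N4. Tsc22d3-203, which starts further upstream, held 3.62% and 7.63% in naive cells, 16.1% and 12.6% in T4 and 9.99% and 0% in N4. Without N4 replicate 1, which leaves only the N4 library at 0%, Tsc22d3 was called in N4 against naive (adjusted p = 0.0099) and in N4 against T4 (0.0051). Btg1-201 held at least 99.3% of Btg1 counts in every library, and Pik3ip1-201 held 90.3% and 85.9% in naive cells, 84.4% and 84.1% in T4 and 78.5% and 81.9% in N4. The Txnip transcripts 201 and 202 cover almost the same span, and their shares swung between the T4 libraries (80.5% and 33.7% for Txnip-201), so the estimates are unsteady there. Foxp1-206 held 17.3% and 1.42% in naive cells, 17.1% and 1.54% in T4 and 0% in both N4 libraries, a gap within groups as wide as between them.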

How the data were processed

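The labels name the miRNeasy Micro kit for RNA extraction and a SMARTer poly(A) kit for libraries. The latter does not mark strand, so overlapping genes on opposite strands cannot be separated. The authors deposited estimated counts per gene and per transcript as whole numbers, not normalized. The submitters' processing notes name R 4.0.5, DESeq2 1.30.1, StringTie 2.1.0, SAMtools 1.9, STAR 2.7.1a and the build mm39, without roles. The estimates may depend on an assumed read length, so totals are not read numbers. Symbols (52081 of 55414 identifiers, 94%), lengths and coordinates came from GENCODE M21 on GRCm38, and coordinates were not converted.

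Changes were tested with edgeR 4.0.16 (limma 3.58.1, R 4.3.3): TMM scaling, filterByExpr (23003 genes kept), a quasi-likelihood fit of group means over all 6 libraries, and Benjamini-Hochberg adjustment over all genes. The common biological coefficient of variation was 0.67. A standard error is a log2 fold change over the root of its F statistic. CPM and TPM values were computed from the counts; prior count 2 was used for profiles. Transcript use was tested with diffSpliceDGE (42444 transcripts, 97.1% of deposited transcripts having a model). An exact permutation test of 2 against 2 cannot go below p = 0.33, so none is given. Replicates differed far beyond sampling noise (chi-square per degree of freedom 296.6, 96.7 and 1883.6 in N4, T4 and naive), and p-values measure only the spread between these libraries. Alternatives were DESeq2 1.42.0, library-size scaling, no filter, fits of 2 groups, a replicate block, leaving out each library and, added after seeing the data, scaling to summed T cell markers. Both procedures were tested on simulated data. The gene test made few false calls but recovered few of the smaller changes. The transcript-use test recovered large switches but exceeded its nominal rate of false calls in both N4 comparisons. Its simulated spread was a single assumed value for all transcripts. The 10 genes and all lists were chosen with earlier results of these data known. The rule named the 10 genes, up to 4 genes of smallest p per list and comparison, and the nearest profile of each gene. The values of 1 list gene that the rule names are not reported here.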

Additional observations from a re-analysis of the deposited data

How the results depend on the processing

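Over the 10 genes and 3 comparisons, 285 results kept direction and side of the threshold under an alternative, 44 gained a call, 24 lost one and 7 reversed. All 10 genes stayed negative in N4 against naive and in N4 against T4 under every alternative run. The reversals were all in T4 against naive: Btg2 at 0.13 with library-size scaling, Klf2 from -1.01 to 0.74, Foxo1 from -0.89 to 0.27 and Slfn2 from -0.22 to 0.4 with a library left out, and Klf2, Foxo1 and Btg2 at 0.11, 0.08 and 0.31 with T cell marker scaling. The cause was not tested. Library-size scaling moved the median of all genes to -0.65, 0.3 and -1.05 in N4 against naive, T4 against naive and N4 against T4, and that of the 10 genes to -2.09, -0.44 and -1.68. Its split of calls between the peptides was 320 higher and 1736 lower, against 801 and 1029 with TMM.

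Counts of calls depended more on the test. Of the 10 genes, N4 against naive gave 5 calls, 8 with DESeq2, 8 with no filter and 2 to 10 with a library left out. T4 against naive gave 1, then 0 with library-size scaling, 4 with DESeq2, 2 with no filter, 0 with 2 groups and 0 to 4 with a library left out. N4 against T4 gave 2, then 4 with library-size scaling, 6 with DESeq2, 4 with no filter, 7 with 2 groups and 0 to 7 with a library left out. Over all genes, N4 against naive gave 2772 calls, 6186 with DESeq2, 4257 with no filter, 1044 with 2 groups and 639 to 4487 with a library left out. T4 against naive gave 27 calls, 53 with library-size scaling, 1997 with DESeq2, 956 with no filter, 0 with 2 groups (3531 at an unadjusted p under 0.05), 65 with T cell marker scaling and 0 to 357 with a library left out. N4 against T4 gave 1830 calls, 5755 with DESeq2, 3834 with no filter, 5281 with 2 groups and 0 to 4547 with a library left out. With T cell marker scaling, calls split into 1731 higher and 1298 lower in N4 against naive, beside 1120 and 1652. Transcript use gave 0 to 1 calls in N4 against naive and in N4 against T4 with a library left out.

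Same-numbered libraries did not deviate together (correlations 0.017, 0.08 and 0.037), so the numbers were not taken as pairs. A replicate block gave 6, 1 and 4 calls among the 10 genes and 3620, 130 and 3367 over all genes. With 2 libraries per group and a shared spread, leaving one out leaves a lone sample assumed to vary like the others, and small differences are not detectable.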
